A study of Mus musculus with 2 samples.

Results

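The genes described here are 10 immediate early genes of the AP-1, Egr and Nr4a families, Nr4a1, Nr4a2, Nr4a3, Fos, Fosb, Jun, Junb, Egr1, Atf3 and Fosl2, followed through single cells of the fetal mouse lung. They are the rows of the count matrix with these symbols, 10 of 32285 genes, and each symbol had 1 row. They were chosen by symbol with earlier results of these data known, and no cut-off on a measured value was set, so their levels by cell class are given as a description with no test. Cells came from wild-type fetuses on gestation day 18 whose mothers, 9 weeks old, drank water containing PBS or dexamethasone (DEX, a synthetic glucocorticoid) at 1.3 µg/ml from gestation day 12. Lungs were pooled within a litter (the DEX litters, DEX-1 and DEX-2, had 8 and 9 fetuses, the PBS litters 5 and 8), digested with collagenase D and DNase I at body temperature and sorted as live CD45+ Lin- ST2+ cells, the surface phenotype of group 2 innate lymphoid cells (ILC2s). The litters were marked with hashtag antibodies and captured together, so the litter is the replicate, with 2 per treatment, and pooling hides differences between fetuses.

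Immediate early genes are transcribed within minutes of a signal from pre-existing factors such as SRF and CREB, without new protein synthesis. Fos and Jun proteins pair into the AP-1 transcription factor, Egr1 is a zinc-finger factor, and the Nr4a proteins are orphan nuclear receptors that bind DNA without a known hormone. In lymphocytes and mast cells these genes report receptor signalling, and many are also induced when tissue is digested at warm temperature, so a level in dissociated cells may reflect either.

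The gate held more than ILC2s. Of 7268 cells assigned to a single litter, 2809 (38.6%) had the markers of basophils or mast cells and 2048 (28.2%) those of ILC2s. Smaller classes were mesenchymal-like (213 cells), epithelial-like (528), B-like (196) and endothelial-like (288), while 1186 cells in 5 clusters were left unnamed. Litters held 1737 to 1890 cells and 18665955 to 23660294 unique molecular identifiers (UMIs). Names rest on marker genes, and the 10 genes were kept out of clustering. Levels are CPM, the gene's UMIs per 1000000 UMIs summed over the cells of a class in 1 litter, with 4 litters behind each mean. Sftpc, the surfactant gene of alveolar epithelium, had a mean of 79272 CPM in epithelial-like cells and ranged from 217 to 271 CPM over the ILC2-like sums of the litters, a measure of stray RNA whose part in the levels below was not tested.

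RefSeq upstream sequence on GRCm38.p6 was found for 9 of the 10 genes, all but Egr1. The letters TGACG, the core of the cAMP response element to which CREB binds, lay on either strand within the 250 bases before to 50 bases after the start in 7 of the 9 (Nr4a1, Nr4a2, Nr4a3, Fos, Fosb, Junb and Atf3), against 20.8% of 32851 such windows in the genome. The 3 Nr4a genes and Fos are printed because the DEX comparison turns on Nr4a2 and these are its paralogues and the best known CREB target. Each stretch lies upstream of the RefSeq start and overlaps no annotated exon of its gene, reads 5′ to 3′ on the gene's strand, and shows TGACG or its reverse complement in capitals.
Nr4a2: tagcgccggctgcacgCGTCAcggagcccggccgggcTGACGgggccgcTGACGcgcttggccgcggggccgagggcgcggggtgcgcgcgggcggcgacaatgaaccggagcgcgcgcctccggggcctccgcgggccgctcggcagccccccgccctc
Nr4a1: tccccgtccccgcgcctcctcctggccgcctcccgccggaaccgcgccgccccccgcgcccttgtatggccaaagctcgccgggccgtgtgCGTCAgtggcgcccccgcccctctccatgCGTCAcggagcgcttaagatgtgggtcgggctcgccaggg
Nr4a3: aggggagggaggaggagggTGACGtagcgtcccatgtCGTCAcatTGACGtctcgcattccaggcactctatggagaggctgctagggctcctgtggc
Fos: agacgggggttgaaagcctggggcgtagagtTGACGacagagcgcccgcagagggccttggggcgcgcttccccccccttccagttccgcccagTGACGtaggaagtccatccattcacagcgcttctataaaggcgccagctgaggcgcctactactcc

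These stretches lie at chr2:57124004-57124163 (minus strand), chr15:101266686-101266845 (plus strand), chr4:48045055-48045152 (plus strand) and chr12:85473730-85473889 (plus strand). They hold 3, 2, 3 and 2 copies of the core. The stretches of Nr4a2, Nr4a1 and Fos end at the base before the RefSeq start. That of Nr4a1 lies within the gene's annotated span, which begins farther upstream, and that of Nr4a3 ends before an annotated exon upstream of its RefSeq start. The Egr letters GCGNGGGCG were present in the windows of Nr4a1, Nr4a2, Fosb and Fosl2, against 5.55% of all windows. The AP-1 letters TGANTCA (7.81% of all windows), the full element TGACGTCA (1.79%), the Nr4a letters AAAGGTCA (1.51%) and the glucocorticoid receptor core ACANNNTGT (6.85%) were in 0 of the 9 windows, each searched on both strands. The CArG box, the site of SRF, was likewise in 0 of the 9 (1.63% of all windows). Distal elements were not searched.

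Class by class, the 10 genes did not follow 1 order. Nr4a1, Nr4a2, Nr4a3, Junb and Fosl2 were highest in ILC2-like cells, Fos, Fosb, Jun and Egr1 were highest in mesenchymal-like cells, and Atf3 was highest in epithelial-like cells. B-like cells were lowest for 8 of the 10, the exceptions being Nr4a1, lowest in epithelial-like cells, and Atf3, lowest in basophil or mast-like cells. Summed over the 10 genes, the share of UMIs was 1.65% ± 0.082 (SD, n = 4) in mesenchymal-like, 1.28% ± 0.131 in basophil or mast-like, 1.22% ± 0.068 in ILC2-like, 0.888% ± 0.055 in epithelial-like, 0.792% ± 0.126 in endothelial-like and 0.284% ± 0.033 in B-like cells. Basophil or mast-like and ILC2-like cells overlapped in their litter ranges, as did epithelial-like and endothelial-like cells.

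**Figure D1:**
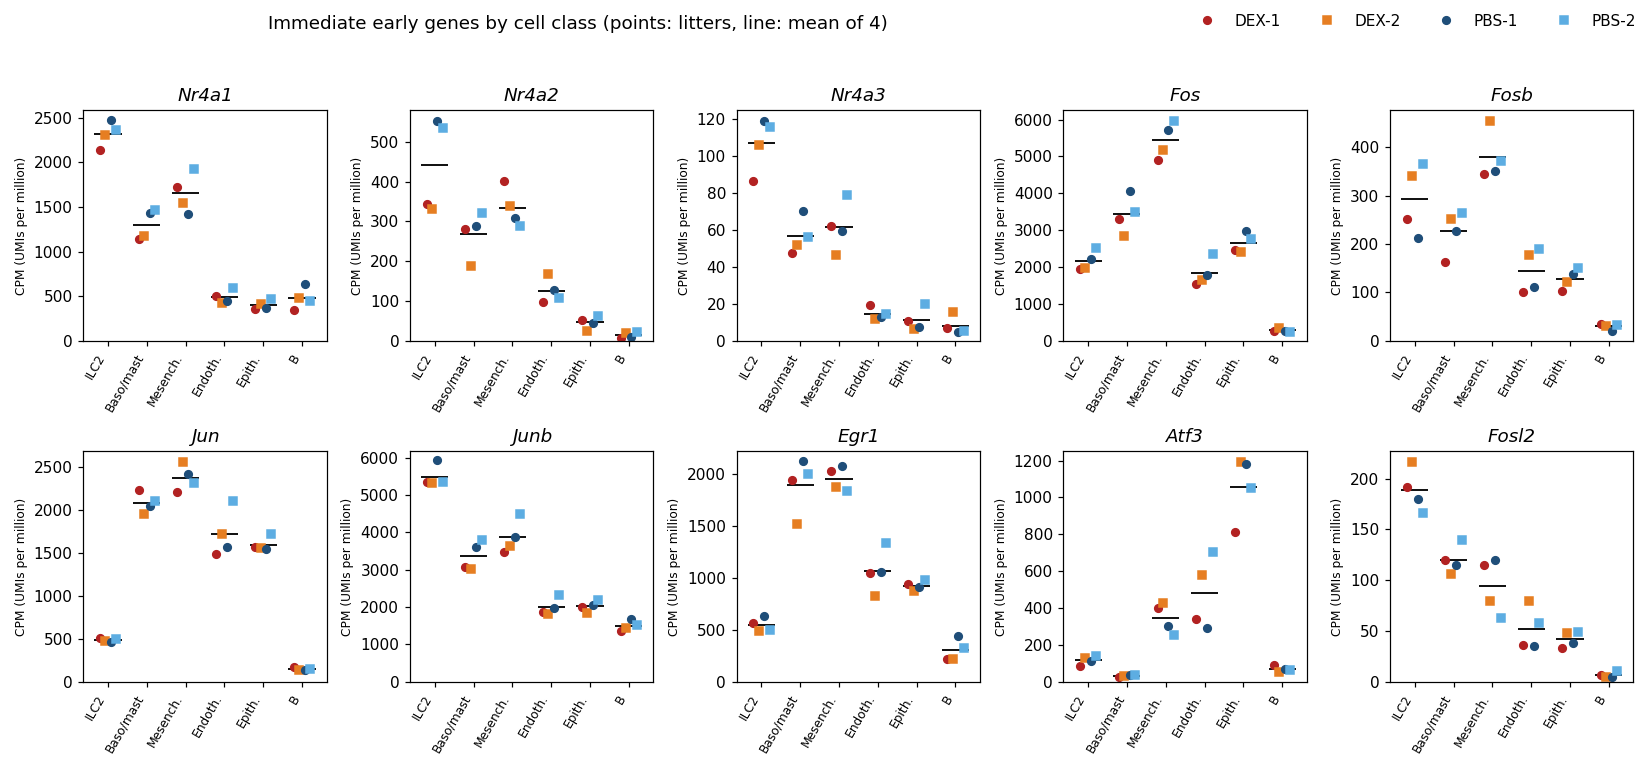
Level of each gene (y axis, CPM on a linear scale from 0) in the 6 named cell classes (x axis), with 1 point per litter (red circles for DEX-1, orange squares for DEX-2, dark blue circles for PBS-1, light blue squares for PBS-2) and a line at the mean of 4 litters. Jun and Egr1 stand low in ILC2-like cells and Nr4a1 and Junb stand high there; Nr4a2 in ILC2-like cells is the panel where red and orange separate most clearly from blue.

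The means of the 3 Nr4a receptors were highest in ILC2-like cells. On GRCm38 the genes span chr15:101254269-101274795 (Nr4a1, plus strand), chr2:57106830-57124003 (Nr4a2, minus strand) and chr4:48045153-48086447 (Nr4a3, plus strand). Nr4a1 (Nur77), induced by antigen-receptor and cytokine signalling, stood at 2324 ± 138 CPM in ILC2-like cells, 1654 ± 217 in mesenchymal-like cells and 1304 ± 170 in basophil or mast-like cells, and then dropped to 493 ± 74.4 in endothelial-like, 477 ± 125 in B-like and 402 ± 49.1 in epithelial-like cells. The ILC2-like litters lay above every mesenchymal-like litter, the mesenchymal-like and basophil or mast-like litters overlapped, and the 3 lowest classes overlapped. Nr4a3 (NOR1) followed with 107 ± 14.5 CPM in ILC2-like cells, 1.73 times the 61.5 ± 13.3 of mesenchymal-like cells, and 56.3 ± 9.84 in basophil or mast-like cells. It was at 8.22 ± 4.90 CPM in B-like cells, where it rested on 6 UMIs in all.

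Nr4a2 (Nurr1) had the widest range among the 3 receptors. Its mean was 441 ± 119 CPM in ILC2-like cells, a spread that joins the DEX and PBS litters, 335 ± 48.8 in mesenchymal-like and 269 ± 57.5 in basophil or mast-like cells, and these 3 classes overlapped in order. Endothelial-like cells followed at 125 ± 30.9, epithelial-like at 46.4 ± 16.0 and B-like at 14.9 ± 7.65 CPM, with 11 UMIs in the last. At an equal depth of 2000 UMIs per cell, 47.1% of ILC2-like, 28.0% of basophil or mast-like and 2.20% of B-like cells had an Nr4a2 UMI (77.3%, 47.1% and 4.59% before thinning, at median depths of 7232, 6570 and 3516 UMIs).

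Junb (chr8:84974484-84978718, minus strand), an AP-1 subunit that often restrains c-Jun, was the other gene with a high ILC2-like level, 5489 ± 300.7 CPM against 3867 ± 444 in mesenchymal-like and 3371 ± 377 in basophil or mast-like cells, and it was detected in 99.3% of ILC2-like cells after thinning. Fosl2 (Fra-2; chr5:32135801-32157842, plus strand), a Fos relative that outlasts Fos after stimulation, stood at 188 ± 21.3 CPM in ILC2-like cells and 120 ± 14.4 in basophil or mast-like cells. In B-like cells it was at 7.03 ± 2.87 CPM, on 5 UMIs.

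Jun and Egr1 ran the other way. Jun (c-Jun; chr4:95049034-95052222, minus strand) was at 486 ± 18.2 CPM in ILC2-like and 2081 ± 118 in basophil or mast-like cells, 4.28 times the level, and every litter of one class lay apart from every litter of the other. Mesenchymal-like cells (2373 ± 150) overlapped with basophil or mast-like cells, and these with endothelial-like cells (1716 ± 277), which overlapped with epithelial-like cells (1596 ± 81.7). Egr1 was at 547 ± 64.8 CPM in ILC2-like and 1900 ± 264 in basophil or mast-like cells, a ratio of 3.47, and mesenchymal-like cells overlapped the latter at 1958 ± 120. Jun overlaps an annotated antisense gene, Junos, and Junb the opposite-strand gene Prdx2, whose reads can be told apart only where counting used strand.

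Fos (chr12:85473890-85477273, plus strand), the short-lived partner of Jun, was at 5445 ± 488 CPM in mesenchymal-like, 3426 ± 503 in basophil or mast-like, 2649 ± 264 in epithelial-like, 2164 ± 270 in ILC2-like, 1831 ± 356 in endothelial-like and 282 ± 50.8 in B-like cells, and the 4 middle classes overlapped with their neighbours. Fosb (chr7:19302696-19310051, minus strand), which dimerizes with Jun proteins as Fos does, ranged from 381 ± 50.7 CPM in mesenchymal-like to 29.7 ± 6.91 in B-like cells, with every pair of neighbours above epithelial-like cells overlapping.

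Atf3 (chr1:191170296-191218039, minus strand), a stress-induced repressor of the ATF/CREB family, was the exception among the 10. It stood at 1059 ± 177 CPM in epithelial-like cells, 2.21 times the 479 ± 196 of endothelial-like cells, and at 345 ± 82.8 in mesenchymal-like, 117 ± 23.4 in ILC2-like, 69.3 ± 16.1 in B-like and 32.3 ± 3.65 in basophil or mast-like cells. In thinned cells 57.3% of epithelial-like but 3.98% of basophil or mast-like cells had an Atf3 UMI, although the latter held Fos in 86.9% and Egr1 in 84.4% of cells.

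Classes were not uniform within. Among basophil or mast-like cells, Nr4a2 was at 336 CPM in cluster 0 (led by Mcpt2 and Tpsab1) and 298 CPM in cluster 1 (led by Mcpt4, Mrgprb2 and Cma1), with mast cell genes leading both, but at 41.6 CPM in cluster 2 (led by Mcpt8, a basophil protease gene, and the chemokine gene Ccl4). In cluster 2 the 4 litters read 65.5 and 25.1 CPM (DEX) and 38.6 and 37.1 CPM (PBS), below the lowest litter of either mast cluster (234 CPM). Nr4a1 did not share that step and was at 1516 CPM in cluster 2 against 1310 and 1019. Within ILC2-like cells the dividing cluster 9 was lower than cluster 4 for Junb (4399 against 6019 CPM), Fosl2 (126 against 219 CPM) and Nr4a1 (2025 against 2468 CPM). An unnamed cluster of 30 cells, led by Tox and with a median of 2273.5 UMIs, held the highest Nr4a2 (930 CPM), Nr4a3 (573 CPM), Fosb (708 CPM) and Fosl2 (539 CPM) of all 16 clusters, on 40 to 69 UMIs each.

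**Figure D2:**
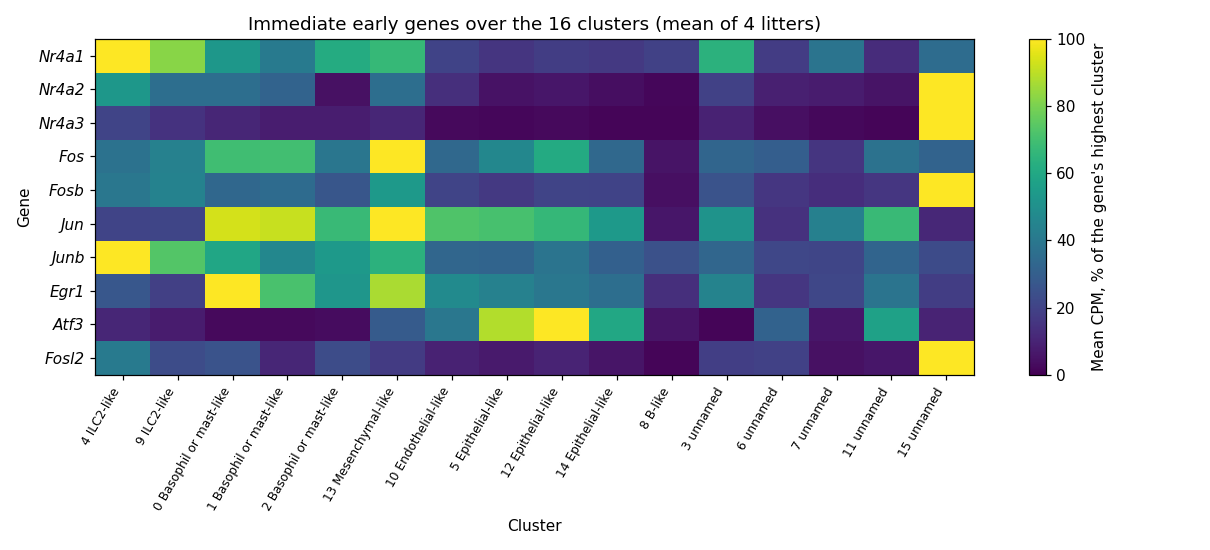
Mean CPM over 4 litters for each gene (rows) in each of the 16 clusters (columns, with the class name), as a percent of that gene's highest cluster (colour, 0 to 100). Atf3 is dark in the 3 basophil or mast-like clusters and bright in epithelial-like ones, Nr4a2 is dark in cluster 2, and the 30-cell cluster 15 is brightest for Nr4a2, Nr4a3, Fosb and Fosl2.

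Cell by cell, the 10 genes were common. The median ILC2-like cell had UMIs of 7 of the 10, as did the median basophil or mast-like cell, and 1 of 2048 ILC2-like and 5 of 2809 basophil or mast-like cells had none. The share of a cell's UMIs taken by the 10 genes ran from 0.671% (10th percentile) to 2.10% (90th percentile) in ILC2-like and from 0.396% to 2.23% in basophil or mast-like cells. In thinned cells the share with both genes of a pair was divided by the product of their separate shares. The median ratio was 1.01 over the 45 pairs in ILC2-like and 1.02 in basophil or mast-like cells. A ratio cannot pass 1 divided by the larger share, so pairs with a widely detected gene are held near 1. Junb, Nr4a1 and Fos were in 99.3%, 90.7% and 86.6% of thinned ILC2-like cells. Junb, Fos, Jun and Egr1 were in 93.8%, 86.9%, 86.4% and 84.4% of basophil or mast-like cells. The medians therefore say little about joint expression. In ILC2-like cells 12 pairs were above 1 and 4 below 1 in every litter, and in basophil or mast-like cells 17 and 3. The highest mean ratios were those of Nr4a3 with Atf3 (1.35, 0.903 to 1.92 by litter) in the former and of Nr4a3 with Fosl2 (1.46, 0.949 to 2.03) in the latter, both of rarely detected genes. Nr4a2 with Nr4a3 was above 1 in every litter of both classes, with mean ratios of 1.18 and 1.21, and Jun with Fosl2 was below 1 in every ILC2-like litter, with a mean of 0.923.

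The genes whose level per cell was most like the sum of the 10 were feedback genes (4 of the first 8 in each class) and other immediate early genes, except Pnrc1 in ILC2-like cells, which is in neither list. Within litters of ILC2-like cells the mean Pearson r across cells was 0.503 for Zfp36 (tristetraprolin, which degrades AU-rich mRNAs), 0.410 for Tnfaip3 (A20, a brake on NF-κB), 0.382 for Ier2, 0.347 for Zfp36l2, 0.346 for Ppp1r15a, 0.334 for Pnrc1, 0.321 for Zfp36l1 and 0.321 for Btg2. In basophil or mast-like cells Dusp1, a phosphatase of MAP kinases, was first at 0.584, then Zfp36 (0.580), Ier2 (0.432), Tnfaip3 (0.430), Ppp1r15a (0.418), Zfp36l2 (0.391), Jund (0.350) and Csrnp1 (0.344). The median over all candidate genes was -0.018 for 8745 genes and 0.036 for 8246 genes, and the cells compared share a library and differ in depth. The lists as a whole stood far below these first genes. Feedback genes had a median r of 0.084 in ILC2-like and 0.090 in basophil or mast-like cells, and other immediate early genes 0.038 and 0.081. Genes of the heat shock list had a median r of -0.041 in ILC2-like and 0.011 in basophil or mast-like cells.

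DEX and PBS litters were compared to ask what maternal glucocorticoid did to these genes in fetal ILC2-like cells, and Nr4a2 was the gene that moved. It read 344 CPM in DEX-1 and 332 CPM in DEX-2 against 551 CPM in PBS-1 and 535 CPM in PBS-2, so that both DEX litters lay well below both PBS litters, while each pair differed by little (SD 8.10 and 11.7 CPM). The log2 fold change was -0.68 ± 0.07 (SE; adjusted p = 0.000134, edgeR over 10626 genes), a level 0.625 times that of PBS. In thinned cells 38.6% (95% exact binomial interval 34.4 to 42.8%) and 41.7% (37.1 to 46.4%) of the DEX cells had an Nr4a2 UMI against 54.8% (50.2 to 59.3%) and 53.1% (48.9 to 57.3%) of the PBS cells, intervals that cover counting error only. It was 1 of 10 members called, in a comparison where 2.27% of all genes were called (1.24% lower and 1.03% higher in DEX). The call held in 18 of 19 alternative analyses, with log2 fold changes of -0.76 to -0.47, and was lost when every singlet of a litter was pooled, whatever its class (-0.31, adjusted p = 0.298). Alternatives that left out a litter kept 1 litter in a treatment, so their calls do not measure the spread of litters in it. In the same ILC2-like sums the 9 epithelial marker genes, none of them at 0, added up to 297 and 295 CPM in DEX. In PBS they added up to 354 and 340 CPM. Sftpc, 1 of the 9, was at 230 and 217 CPM of this sum against 268 and 271 CPM, lower in DEX like Nr4a2. Endothelial marker genes were higher in DEX, at 43.9 and 44.4 CPM against 36.8 and 40.7 CPM. Mesenchymal marker genes overlapped, at 12.2 and 10.6 CPM against 11.5 and 10.9 CPM. The mean of Nr4a2 in epithelial-like cells was 46.4 CPM, and the part of stray RNA in the Nr4a2 difference was not tested. T cell marker genes added up to 571 to 644 CPM.

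The other 9 genes did not pass. Fos came nearest, at 1950 and 1969 CPM in DEX against 2209 and 2528 CPM in PBS, a log2 fold change of -0.27 ± 0.08 (adjusted p = 0.0988). It was called in 4 of 19 alternatives. These included library totals in place of TMM (adjusted p = 0.0357) and no filter on low counts (adjusted p = 0.00249). Another was a block for litter number (adjusted p = 7.82e-06), which adds a term to the fit of the same 4 litters. The last left out PBS-1 (-0.37) and kept 1 PBS litter, so it does not measure the spread of PBS litters. Nr4a3 was at 86.5 and 106 CPM in DEX against 119 and 116 CPM in PBS, a log2 fold change of -0.28 ± 0.10 (adjusted p = 0.242). Without DEX-2, which leaves 1 DEX litter, the log2 fold change was -0.44. Fosl2, which the study lists among its proliferation genes, had a higher estimate in DEX, at 191 and 216 CPM in DEX against 180 and 166 CPM in PBS (0.24 ± 0.09, adjusted p = 0.229), and was called in 1 of 19 alternatives, the block (adjusted p = 0.0498). Nr4a1, Junb, Egr1, Jun and Atf3 had log2 fold changes of -0.11, -0.07, -0.09, 0.03 and -0.22. That of Atf3 was -0.54 without DEX-2 and -0.38 without PBS-1, each with 1 litter left in a treatment. With the normalized levels, both DEX litters were below both PBS litters for Nr4a1, Nr4a2, Nr4a3 and Fos, and above them for Fosl2, so that 5 of 10 genes did not overlap, where 42.6% of all genes did not (21.7% had both DEX litters below both PBS litters).

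Fosb, which the study lists in its glucocorticoid signature, followed litter number rather than treatment. It was at 251 CPM in DEX-1 and 342 CPM in DEX-2, and at 212 CPM in PBS-1 and 365 CPM in PBS-2, a log2 fold change of 0.03 ± 0.19. Leaving out PBS-1 gave -0.31 and leaving out PBS-2 gave 0.50, each with 1 PBS litter left. In 5 of 6 classes both litters numbered 2 were above the litter of the same treatment numbered 1. The labels do not say what the numbers share.

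**Figure D3:**
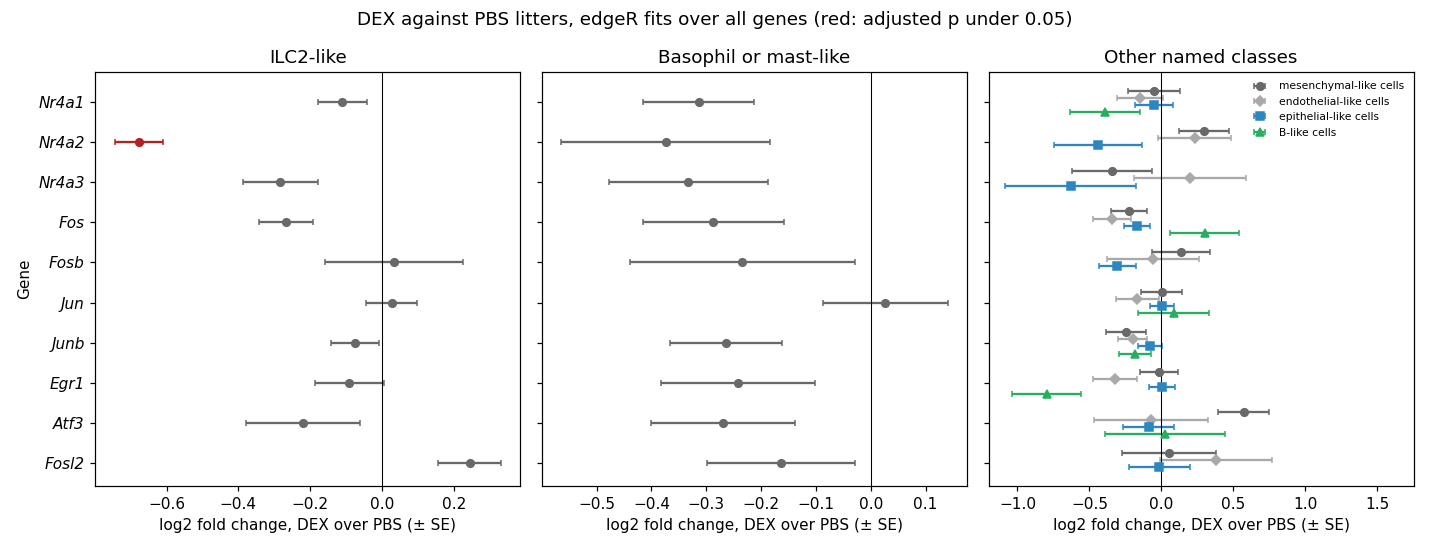
Log2 fold change of DEX over PBS (x axis) for each gene (y axis) in ILC2-like, basophil or mast-like and the 4 other named classes; points are edgeR estimates from 2 litters per treatment and bars are ± 1 SE. Nr4a2 in ILC2-like cells (-0.68) is the only red point, the colour for an adjusted p under 0.05, and 9 of the 10 points of basophil or mast-like cells lie below 0. The 3 panels have different x scales.

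ILC2-like cells were split further, with the same genes left out, into 5 subclusters. Nr4a2 was lower in both DEX litters than in both PBS litters in 4 of the 5. In subcluster 4 (598 cells, led by Ctla2a, Ctla2b and Calca) it was at 500.5 and 475 CPM against 767 and 842 CPM. In subcluster 2 (514 cells, led by Ung, Mcm2 and with Areg and Csf2 among its leading genes) it was at 317 and 248 CPM against 460 and 478 CPM, and in the dividing subcluster 1 (388 cells) at 278 and 291 CPM against 406 and 392 CPM. Subcluster 5 (200 cells) had the highest levels, 594 and 524 CPM against 1132 and 1259.5 CPM, and its leading genes include the mast cell genes Cpa3, Hdc and Gata1, with Cpa3 at 365 CPM against 40.2 CPM or less in the others. Tpsb2, also a mast cell gene, was at 23.9 CPM there, close to the 21.6 CPM of subcluster 4. Gata3 was at 362 CPM there and at 348 to 557 CPM in the others.

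Subcluster 3 (348 cells, led by Cd7 and Ms4a4b, with Tcf7, a factor of lymphoid progenitors, and S1pr1, a receptor for tissue exit) differed. Nr4a2 was at 237 and 242 CPM in DEX and at 219 and 271 CPM in PBS there, with overlapping litters. It made up 21.9% and 23.3% of ILC2-like cells in the DEX litters against 12.6% and 11.2% in the PBS litters, so that DEX litters had more of the cells with little Nr4a2. With the subcluster shares of cells in each litter set to those of all 4 litters, Nr4a2 was at 377 and 348 CPM in DEX. In PBS it was at 564 and 609 CPM, a log2 ratio of -0.69. These values weight subclusters by cells and the class levels above weight them by UMIs, so a shift between them is not from shares alone. Without subcluster 5 Nr4a2 was at 329 and 323 CPM against 492 and 483 CPM. Nr4a1 (2107 and 2318 CPM against 2399 and 2307 CPM) and Nr4a3 (84.9 and 101 CPM against 101 and 108 CPM) then overlapped between treatments, while Fos and Fosl2 did not. The same shares set Nr4a1 at a log2 ratio of -0.19, Nr4a3 at -0.32 and Fosl2 at 0.22, with Fosl2 above in both DEX litters in 3 of 5 subclusters.

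**Figure D4:**
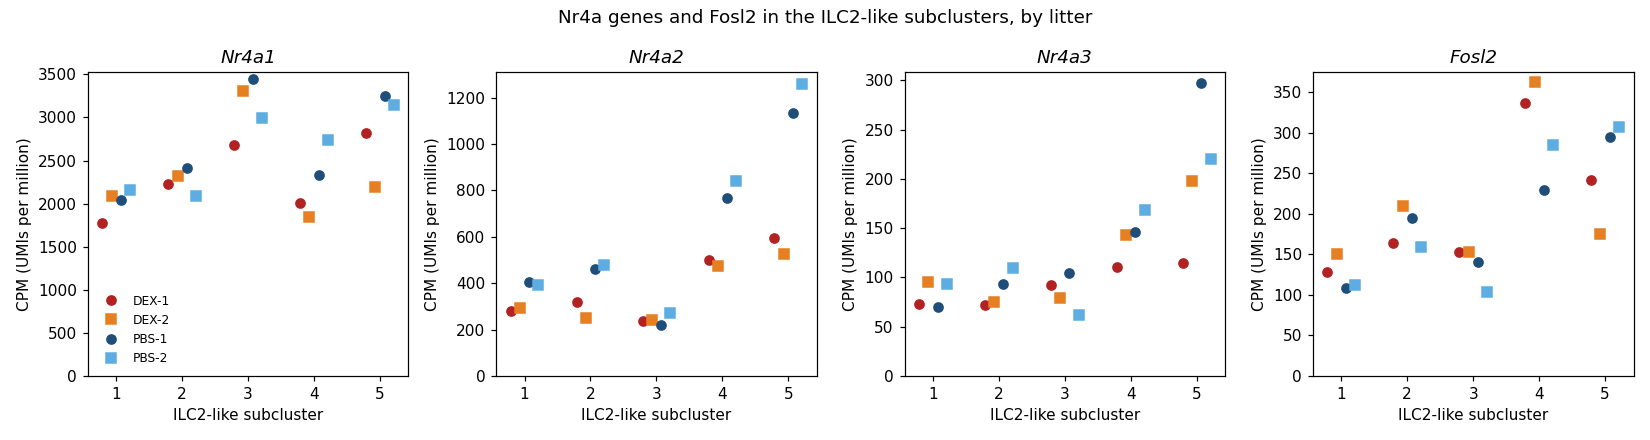
Level (y axis, CPM on a linear scale from 0) of Nr4a1, Nr4a2, Nr4a3 and Fosl2 in the 5 ILC2-like subclusters (x axis), with 1 point per litter (red and orange for DEX, dark and light blue for PBS). The blue points of Nr4a2 stand above the red and orange ones in subclusters 1, 2, 4 and 5 and mix with them in subcluster 3, where all 4 litters lie between 219 and 271 CPM.

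Among basophil or mast-like cells, 9 of the 10 genes had a lower estimate in DEX but 0 of 10 passed. The median log2 fold change of the 10 was -0.27 against 0.00 over all 10958 genes, and Jun was the exception (0.03 ± 0.11). Nr4a1 was at 1139 and 1177 CPM in DEX against 1439 and 1462 CPM in PBS, a log2 fold change of -0.31 ± 0.10 (unadjusted p = 0.0174 and adjusted p = 1.00, edgeR). Junb was at 3081 and 3023 CPM against 3597 and 3785 CPM (-0.26 ± 0.10). Nr4a2 was at 280 and 187 CPM against 289 and 321 CPM (-0.37 ± 0.19). For 7 of 10 genes both DEX litters were below both PBS litters, where this was so for 16.3% of all genes (litters of either order did not overlap for 31.3%). Over all genes 0% were called by edgeR, 473 had an unadjusted p under 0.05, and DESeq2 called 7 genes. The 10 genes were measured in the same cells and litters, so their common sign is not 10 separate results.

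The lower sums were those of the mast clusters. In cluster 0 the summed share of the 10 genes was 1.27% and 1.18% of UMIs in DEX against 1.59% and 1.52% in PBS, and in cluster 1 it was 1.08% and 1.16% against 1.35% and 1.23%. In cluster 2 it was 1.19% and 0.918% against 1.00% and 0.932%, and 6 genes had a log2 fold change above 0 that was below 0 in the whole class, among them Fos (0.39), Nr4a2 (0.21) and Junb (0.13), none of which passed.

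Whether DEX acted differently on Nr4a2 in the 2 classes was tested directly, and no difference passed the threshold. The difference of the log2 fold changes, ILC2-like minus basophil or mast-like, was -0.27 ± 0.17 for Nr4a2 (unadjusted p = 0.145, adjusted p = 0.965, edgeR interaction), so the change is not shown to be particular to ILC2-like cells. The largest difference among the 10 was that of Fosl2 (0.41 ± 0.17, unadjusted p = 0.0389, adjusted p = 0.965). None of the 10 was called in a fit that called 0.0253% of 11840 genes.

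In the other classes no member was called. Background rates were 0.19% of 3162 genes in B-like, 0.0259% of 11602 in epithelial-like, 0% of 9318 in endothelial-like and 0% of 7893 in mesenchymal-like cells, with 336 and 295 genes at an unadjusted p under 0.05 in the last pair and 1 and 0 genes called by DESeq2. In B-like cells 6 of the 10 had enough counts to be tested, and Egr1 was at 223 and 222 CPM in DEX against 446 and 328 CPM in PBS (-0.80 ± 0.24, unadjusted p = 0.00789, adjusted p = 0.841). Nr4a2 had estimates of 0.29 ± 0.17 in mesenchymal-like, 0.23 ± 0.25 in endothelial-like and -0.44 ± 0.30 in epithelial-like cells. Atf3 was at 401 and 428 CPM in DEX against 300.5 and 252 CPM in PBS in mesenchymal-like cells (0.57 ± 0.18, unadjusted p = 0.0129, adjusted p = 1.00).

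Genes around the 10 moved in both directions in ILC2-like cells. Over all genes 1.03% were called higher and 1.24% lower in DEX, the background for each list count that follows. Of 31 other immediate early genes tested, 3 rose and 2 fell in DEX, with a list median of -0.05 against 0.00 over all genes. Crem, whose product and its inducible repressor ICER act at cAMP response elements, was at 220 and 255 CPM against 147 and 106 CPM (0.93 ± 0.12, adjusted p = 0.00122). Jdp2, an AP-1 repressor, rose by 0.57 ± 0.09 and Klf10, a TGF-β-induced factor, by 0.62 ± 0.14. Maff fell by 0.49 on the log2 scale and Gadd45b, a stress sensor, by 0.46. The most abundant of the list were Jund (1820 CPM), Ier2 (1425 CPM) and Btg2 (767 CPM) in ILC2-like cells and Ier2 (2733 CPM), Ier3 (2470 CPM) and Jund (2439 CPM) in the basophil or mast-like class, and none of the 4 was called.

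Among 20 feedback genes 1 rose and 2 fell. Errfi1, an inhibitor of the EGF receptor, was at 99.8 and 130 CPM in DEX against 70.9 and 71.0 CPM in PBS (0.70 ± 0.12, adjusted p = 0.00771). Spry1, an inhibitor of Ras-MAPK signalling, was at 15.9 and 20.5 CPM against 35.6 and 36.5 CPM (-0.99 ± 0.16, adjusted p = 0.00538), and Socs1, an inhibitor of JAK-STAT signalling, fell by 0.49 on the log2 scale. The abundant members Nfkbia (2601 CPM), Zfp36 (2240 CPM) and Zfp36l1 (1272 CPM) in ILC2-like cells and Zfp36 (2986 CPM), Dusp1 (2629 CPM) and Nfkbia (2513 CPM) in the basophil or mast-like class were not called. Of 23 upstream kinases and factors tested, Rps6ka5 (MSK1, a kinase of CREB and histone H3) was called, at 32.8 and 29.8 CPM against 46.1 and 51.1 CPM (-0.63 ± 0.13, adjusted p = 0.0202). Map2k2 (176 CPM in ILC2-like and 129 CPM in basophil or mast-like cells) and Rps6ka1 (96.0 and 164 CPM) were among the abundant members of that list and were not called.

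Of 14 activation readouts tested in ILC2-like cells, Tnfrsf9 (4-1BB, a costimulatory receptor) rose from 80.9 and 71.2 CPM in PBS to 186 and 188 CPM in DEX (1.31 ± 0.09, adjusted p = 7.55e-06), and Il4 fell, at 91.3 and 79.5 CPM in DEX against 133 and 122 CPM in PBS (-0.56 ± 0.09, adjusted p = 0.00538). Areg (1022 CPM), Cxcl2 (819 CPM) and Ptgs2 (421 CPM) were the most abundant and were not called. In basophil or mast-like cells the leading readouts were Ccl4 (2019 ± 1093 CPM), Ccl3 (1260 ± 580 CPM) and Ptgs2 (576 ± 179 CPM). No gene of these 5 lists was called in that class.

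The heat shock list, of chaperone genes not limited to stress-inducible ones, had medians above 0 in both main classes. None of 13 tested genes was called in ILC2-like and none of 15 in basophil or mast-like cells, with medians of 0.11 and 0.06, opposite in sign to the medians of the 10 genes. The sum of the list was 7556 and 7458 CPM in DEX against 6929 and 6959 CPM in PBS in ILC2-like cells. In basophil or mast-like cells it was 5821 and 5683 CPM against 5461 and 5703 CPM, with overlapping litters. Hspa8 (2357 CPM), Hsp90ab1 (2284 CPM) and Dnaja1 (890 CPM) led it in ILC2-like cells and Hspa8 (1734 CPM), Hsp90ab1 (1594 CPM) and Hspa5 (738 CPM) in the basophil or mast-like class. The stress-inducible Hspa1a ranged from 0.19 to 1.02 CPM over the litters of ILC2-like cells, on 9 UMIs in all. In basophil or mast-like cells it ranged from 5.82 to 24.2 CPM over the litters, on 315 UMIs held by 1.14% of the cells. All 4 litters went through digestion, and a baseline without it was not measured here, so induction in the fetus and during digestion cannot be told apart.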

How the data were processed

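The deposited table holds UMI counts per gene and barcode, made by the authors with Cell Ranger (7.0.0 per the file header, mm10 per the submitters' processing notes) from 1 10x 5′ capture. All 10648 barcodes belong to it, with 4 hashtag rows. Barcodes with at least 200 genes and at most 5% mitochondrial UMIs were kept (10409), and HTODemux (Seurat 5.3.0) gave 7268 singlets, 736 doublets and 2405 barcodes without a tag. Doublets within a litter were expected in 3.38% of singlets and were not removed. One figure legend of the study gives 1 dam per group, while labels and hashtags give 2, which were followed.

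Singlets were clustered (2000 variable genes without the immediate early, feedback and heat shock lists, 20 components, Leiden resolution 0.5) and named from marker genes. UMI sums per litter were tested with edgeR 4.0.16 (quasi-likelihood, TMM, filterByExpr, Benjamini-Hochberg over all genes, threshold 0.05). A run on simulated data used fold changes larger than that of Nr4a2 in ILC2-like cells, so recovery at that size was not examined. Litters, not cells, are replicates, and an exact permutation test over 2 against 2 litters cannot give a two-sided p below 0.333. Alternatives included DESeq2 1.42.0 and limma 3.58.1. The genes and lists were chosen with earlier results of these data known. Named from the lists were all genes past the threshold and the 3 most abundant in each of both main classes, except 1 that is not reported here. Litters with the same number did not deviate together (correlation 0.088 in ILC2-like and -0.093 in basophil or mast-like cells), so the numbers were not treated as pairs. Upstream sequences are from RefSeq (GRCm38.p6).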

Additional observations from a re-analysis of the deposited data

Results flagged for a closer look

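In 60 sets of 4 litters (10 genes in 6 classes), 2 had a litter that stood apart from the other 3 by Dixon's criterion, where chance gives about 1 in 20. Junb in ILC2-like cells was at 5939.5 CPM in PBS-1, against 5311 to 5354 CPM in the others. Jun in epithelial-like cells was at 1718 CPM in PBS-2, against 1544 to 1563 CPM in the others. The response to DEX was also tested for a difference between the 2 largest classes, and none of the 10 genes passed.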

How the results depend on the processing

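With 2 litters per treatment, only large and even differences could pass, and B-like levels under 20 CPM rest on few UMIs. Of 452 planned re-estimates of member fold changes, 426 kept their direction and side of the threshold. The count of called genes in ILC2-like cells (241) became 119 with DESeq2, 520 with no filter, 571 with the replicate block, 112 with thinned cells, 3 over all singlets and 59 in cluster 9 alone (chosen after seeing the data), and ran from 233 to 435 with 1 litter left out, being 383 without PBS-1 and 435 without PBS-2. Members called there (1) became 0 over all singlets, 2 with library totals, 2 with no filter and 3 with the replicate block (Nr4a2, Fos and Fosl2), and 1 to 4 with 1 litter left out. In basophil or mast-like cells the count (0) became 7 with DESeq2, 3 over all singlets and 8 in cluster 1 alone, and 0 to 5 with 1 litter left out. The interaction count (3) became 84 with no filter, 16 with the ratio rule for hashtags and 14 with thinned cells. With no filter the counts became 75 in B-like, 151 in epithelial-like, 68 in endothelial-like and 102 in mesenchymal-like cells, and with DESeq2 they became 6 in epithelial-like and 1 in endothelial-like cells. The cause was not tested. The replicate block changed no other call among the 10 genes.

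Log2 fold changes that changed sign were these. In ILC2-like cells Fosb was -0.0051 over all singlets and -0.014 in cluster 4, Jun was -0.016 in cells with a Gata3 UMI and -0.38 in cluster 9, and Egr1 was 0.033 in cluster 4 and 0.078 in thinned cells. With 1 litter left out, Fosb ran from -0.31 to 0.50, Jun from -0.025 to 0.081, Egr1 from -0.24 to 0.068 and Atf3 from -0.54 to 0.071. In basophil or mast-like cells, cluster 2 alone gave 0.21 for Nr4a2, 0.39 for Fos, 0.28 for Fosb, 0.13 for Junb, 0.094 for Egr1 and 0.55 for Atf3. Jun was -0.014 in cluster 0, Fosl2 was 0.15 over all singlets, and with 1 litter left out Fosb ran from -0.59 to 0.050 and Jun from -0.072 to 0.12. In the interaction Nr4a3 was -0.088 with thinned cells and Jun -0.0075 with no filter. With no filter Fosl2 was 0.0085 in epithelial-like and Egr1 0.014 in mesenchymal-like cells, and Jun was -0.0031 in the latter with DESeq2. The class with the highest level stayed the same for 10 of 10 genes under 4 alternatives and for 9 of 10 where listed genes were kept for clustering.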

Other observations

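Barcodes without a hashtag also carried these transcripts. The 13 such barcodes placed nearest to ILC2-like cells (median 3112 UMIs) held Junb at 4906 CPM, Nr4a1 at 2115 CPM and Nr4a2 at 254 CPM on 9 UMIs. The 45 placed nearest to basophil or mast-like cells (median 4993 UMIs) held Fos at 2719 CPM, Egr1 at 2282 CPM, Jun at 1884 CPM and Atf3 at 21.4 CPM on 5 UMIs. They belong to no litter and entered no comparison.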
